A study of Mus musculus with 6 samples.

Results

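*Slc1a2*, *Slc1a3*, *Glul*, *Slc6a11*, *Slc38a3* and *Slc7a10* encode proteins with which glia take up, convert and return glutamate, GABA and neighbouring amino acids, and their transcripts were followed through the cell classes of mouse brain tissue. All 6 genes were taken by symbol, and each was listed in all 6 libraries, so the account covers 6 of the 31537 genes listed for either preparation. In astrocyte-like cells 5 of the 6 genes stood at least 2-fold above every other neural or vascular class in both preparations, as did 4.57% of all genes tested in the cortex and 2.97% in the hippocampus. For *Glul* this holds for the classes as named, since a cluster led by *Gkn3* and *Bmx* reached 52.7% and 79.1% of its astrocyte-like level. *Slc38a3* overlapped between endothelial-like and astrocyte-like cells. *Glul* had the widest reach, with levels between 429 and 1022 UMIs among 1000000 (CPM) in microglia-like, oligodendrocyte-like and endothelial-like cells.

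The cells came from female wild-type C57Bl/6J mice that carried no transgene or treatment by their labels. Prep 1 was made from the cerebral cortex at 3 weeks of age and prep 3 from the hippocampus at 5 weeks. In each, 3 mice were pooled into 1 suspension that was loaded as 3 technical replicates, so each preparation is 1 biological sample and no test between groups was possible. Region, age, preparation and the gene list used for counting cannot be told apart. White matter was trimmed away and myelin debris was removed on Percoll, which bears on the number of oligodendrocytes, and no cell type was enriched. SDs below are between technical replicates, intervals cover counting error only at 95%, and neither describes the spread between animals.

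Glutamate released at synapses is cleared mainly by astrocytes, through the transporters GLT-1 and GLAST. Inside the astrocyte glutamine synthetase joins it to ammonia, and the glutamine returns to neurons, where it is turned into glutamate and GABA again. GABA itself is taken up by transporters of the Slc6 family, of which GAT3 is the astrocytic one. This exchange is called the glutamate/GABA-glutamine cycle.

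*Slc1a2* encodes GLT-1, the main glutamate transporter of the adult forebrain, and *Slc1a3* encodes GLAST, which is also strong in radial glia and in the cerebellum. *Glul* encodes glutamine synthetase. *Slc6a11* encodes GAT3. *Slc38a3* encodes SNAT3, a glutamine transporter that can run in either direction. *Slc7a10* encodes Asc-1, an exchanger of small neutral amino acids such as alanine, glycine and D-serine. On GRCm38 (GENCODE) the genes lie at chr2:102658659-102790784 on the plus strand (*Slc1a2*), chr15:8634124-8710764 on the minus strand (*Slc1a3*), chr1:153899944-153909723, plus (*Glul*), chr6:114131241-114249952, plus (*Slc6a11*), chr9:107650634-107669530, minus (*Slc38a3*) and chr7:35186385-35201114, plus (*Slc7a10*). Exons of *Slc1a2*, *Glul* and *Slc7a10* overlap exons of *Gm13872*, *Teddm2* and *Lrp3* on the opposite strand. *Glul* also overlaps *Mir8114* on its own strand. Whether these overlaps bear on the counts was not tested.

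Promoter sequences are given for 3 of the genes, because they differ in base composition while the genes share a peak in astrocyte-like cells. They are the 250 bases before the RefSeq start on GRCm38.p6, read 5′ to 3′ on the gene's strand, and capitals mark a GC box (GGGCGG on either strand). *Slc1a2* is at chr2:102706188-102706437, which lies inside the longer GENCODE gene span, *Glul* is at chr1:153899679-153899928 and *Slc6a11* at chr6:114130991-114131240.
Slc1a2: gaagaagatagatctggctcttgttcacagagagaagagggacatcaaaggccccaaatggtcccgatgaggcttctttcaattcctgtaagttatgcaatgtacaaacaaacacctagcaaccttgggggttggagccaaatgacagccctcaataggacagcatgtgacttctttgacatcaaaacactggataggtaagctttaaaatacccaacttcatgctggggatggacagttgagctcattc
Glul: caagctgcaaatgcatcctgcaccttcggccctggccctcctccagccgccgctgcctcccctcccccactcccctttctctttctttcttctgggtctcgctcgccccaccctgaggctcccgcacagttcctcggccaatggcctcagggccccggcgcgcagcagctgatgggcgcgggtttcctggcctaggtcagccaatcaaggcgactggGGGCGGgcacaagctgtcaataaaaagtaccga
Slc6a11: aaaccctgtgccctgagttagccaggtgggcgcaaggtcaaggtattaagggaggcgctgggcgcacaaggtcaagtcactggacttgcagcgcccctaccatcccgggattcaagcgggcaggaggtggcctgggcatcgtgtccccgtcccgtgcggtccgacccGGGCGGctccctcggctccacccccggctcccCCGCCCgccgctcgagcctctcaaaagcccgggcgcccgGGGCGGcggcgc

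The *Slc1a2* window held 1 CpG and 44.8% G or C, the *Glul* window 15 and 64.8%, and the *Slc6a11* window 25 and 71.2%. Of the others, *Slc1a3* had 2 CpGs and 44.8%, and *Slc7a10* 14 and 69.6%. The medians over 32851 promoters were 6 CpGs and 52.4%. GC boxes numbered 0 in *Slc1a2*, 1 in *Slc1a3* and *Glul*, 3 in *Slc6a11* and 2 in *Slc7a10*, and 32.7% of all promoters hold one. A TATA box (TATAAA on either strand) was found in *Slc1a3* alone among the 5, against 12.4% of promoters. The full palindromic NFI site, the SOX core ACAATG and the cyclic AMP element TGACGTCA were found in none of the 5 windows, against 0.0365%, 10.7% and 1.55% of promoters. These matches describe the letters of the windows only.

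For each replicate the deposited matrices gave UMIs, each of which stands for 1 captured RNA molecule. The 6 libraries held 39662203 to 50024850 UMIs, and 13320 cells of prep 1 and 14210 of prep 3 passed the filters, with medians of 5800 to 6914 UMIs per cell. Cells were clustered without the 6 genes, and the clusters were named from marker lists that hold none of them, so the ending -like stands for every class named here, also where it is left out. A level in CPM is the UMIs of a gene scaled to the total UMIs of the same cells, summed over the cells of a class in each library. Since transcripts are counted from one end, levels are compared between cells and not between genes.

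The astrocyte-like class held 2665 cells in prep 1 and 1891 in prep 3. Of its 11 markers, which include *Aqp4*, *Gja1* and *Aldoc*, 9 were at least 2-fold above every other neural and vascular class in each preparation. Here and below these classes do not include macrophage-like, ependymal-like, epithelial-like and unnamed cells, and in ependymal-like cells of prep 3 *Mlc1* stood at 138% and *Aqp4* at 60.8% of their astrocyte-like levels. The exceptions among the classes compared were *Gjb6*, at 1.47 times the fibroblast-like level in prep 1 and 0.97 times in prep 3, and *S100b*, which was higher in the oligodendrocyte lineage. By their own marker UMIs 95.1% and 93.9% of the cells were astrocytes, whereas 65 and 58 cells were closest to microglia. The other classes held 6205 and 5817 microglia-like cells, 2457 and 2136 endothelial-like cells, 368 and 451 pericyte-like cells, 77 and 50 fibroblast-like cells, 100 and 586 neuron-like cells and 66 and 1077 oligodendrocyte-like cells. Smooth muscle-like cells (205) were named in prep 1 only, and oligodendrocyte precursor-like cells (OPC-like, 368) and committed oligodendrocyte-like cells (180) in prep 3 only. A cluster of 266 cells of prep 3 led by *Tagln*, *Acta2* and *Myh11*, of which *Tagln*, *Acta2* and *Myh11* are smooth muscle markers, was left unnamed by the marker rules. All 10 endothelial markers passed the marker rules in this cluster too, and 85 of its cells were closest to endothelial cells by their own markers. The cluster is in none of these classes.

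Some classes were less pure than their names. Of the 368 OPC-like cells, 239 were closest to microglia by their own markers and 80 were closest to OPCs. Of the 586 neuron-like cells of prep 3, 93 were closest to astrocytes, and of the 368 pericyte-like cells of prep 1, 108 were closest to endothelial cells. Levels that moved with purity are also given over the core cells, in which cluster and own markers name the same class. The neuron-like cluster of prep 1 was led by *Igfbpl1*, *Top2a* and *Tubb3*. In prep 3 the largest, of 405 cells, was led by *Neurod1*, *Igfbpl1* and *Sox11*. The study counted neural progenitors within its neuronal cluster and reports that neurons were not captured consistently. Neuron-like levels therefore cannot be read as those of mature neurons. Barcodes shared between libraries of a preparation made up 0.458% of the cells of prep 1 and 4.83% of those of prep 3. Most of the latter were epithelial-like cells, of which 511 of 826 shared a barcode.

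*Slc1a2* was carried by astrocyte-like cells. Its level there was 7271, 7086 and 6857 CPM in the replicates of prep 1, and 7108, 7228 and 7137 CPM in those of prep 3. The replicates lay within a narrow band in both preparations, with means of 7071 ± 207 and 7158 ± 62.4 CPM (SD, n = 3 technical replicates). The level was 14.01 times that of the next class in prep 1, the pericyte-like cells, and 9.3 times that in prep 3, the neuron-like cells. After thinning every cell to 1000 UMIs, 98.6% of astrocyte-like cells in prep 1 and 97.4% in prep 3 held a UMI of *Slc1a2*. In microglia-like cells the shares were 4.36% and 2.72%, where the median depth was 5463 and 6647 UMIs, against 6487 and 6535 UMIs in astrocyte-like cells.

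Outside astrocytes *Slc1a2* was low and uneven. In prep 1 the pericyte-like level was 643, 450.2 and 441 CPM. Its replicates lay above all those of the smooth muscle-like (208 CPM), endothelial-like (176 CPM), neuron-like (151 CPM) and fibroblast-like (104 CPM) levels, among which neighbours in the order overlapped between replicates. Over the 239 core cells the pericyte-like replicates had 721, 651 and 208 CPM, and overlapped the smooth muscle-like core cells with 96.5, 209 and 155 CPM. Microglia-like cells of prep 1 had 121, 105 and 80.7 CPM, which was 57.5 CPM over the core cells. In prep 3 microglia-like cells had 31.5, 27.5 and 26.8 CPM, and committed oligodendrocyte-like cells were lowest with 7.56 CPM. The neuron-like level of prep 3 was 681, 703 and 945 CPM, but 243 CPM over the 416 core cells. The 11 astrocyte markers summed to 924 CPM over all these cells and 74.9 CPM over the core cells. Core cells are chosen with these markers among others, so a lower sum follows from the choice. In OPC-like cells *Slc1a2* was 249 CPM over all cells and 453 CPM over the 80 core cells, while the astrocyte markers stood at 357 and 730.05 CPM. The part of astrocyte RNA in these levels was not tested.

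*Slc1a3* followed with a second site in fibroblast-like cells, though not in all of them. Astrocyte-like cells held 3999, 3953 and 3843 CPM in prep 1 and 3831, 3688 and 3729 CPM in prep 3. Fibroblast-like cells held 581, 580.2 and 526 CPM in prep 1 and 1144, 784 and 773 CPM in prep 3. The astrocyte-like level was 7.04 times the fibroblast-like level in prep 1 and 4.41 times in prep 3, and no replicates of the classes overlapped. The fibroblast-like class rests on 77 and 50 cells, in which *Gjb6* and *Gja1*, connexins of astrocytes and of the meninges, were also high. In prep 1 the class joined unlike clusters, of 57 cells with 789 CPM of *Slc1a3* and of 20 cells with 42.7 CPM.

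Microglia-like cells carried a lower but steady level of *Slc1a3*, with 224, 213 and 198 CPM in prep 1 and 179, 177 and 172 CPM in prep 3. Over the core cells these levels were 201 and 176 CPM. At 1000 UMIs 18.5% and 16.04% of microglia-like cells held a UMI of *Slc1a3*, against 2.28% and 1.91% of endothelial-like cells, whose median depth was 6880.0 and 6581 UMIs. The microglia-like level of *Slc1a3* came to 5.38% and 4.70% of its astrocyte-like level. The neuron-like level of prep 3 was 842, 677 and 967 CPM, and 218 CPM over the core cells. Pericyte-like cells had 118 and 104 CPM, oligodendrocyte-like cells 46.6 and 62.4 CPM, and endothelial-like cells 31.1 and 25.3 CPM. In prep 1 the neighbours from microglia-like down to endothelial-like cells overlapped between replicates.

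*Glul* was highest in astrocyte-like cells but was shared by other glia and by vessels. The astrocyte-like level was 3197, 3254 and 3431 CPM in prep 1 and 2391, 2458 and 2499.9 CPM in prep 3. It was 3.69 times the next level in prep 1, in fibroblast-like cells, and 2.40 times the next in prep 3, in oligodendrocyte-like cells. The fibroblast-like clusters of 57 and 20 cells in prep 1 held 1054 and 527 CPM of *Glul*. Microglia-like cells held 752, 769 and 749 CPM in prep 1 and 715, 746 and 720.3 CPM in prep 3. At 1000 UMIs 49.7% and 49.4% of microglia-like cells held a UMI of *Glul*, against 93.5% and 83.8% of astrocyte-like cells and 5.56% of committed oligodendrocyte-like cells (median depth 20061 UMIs), the lowest class of prep 3.

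In the oligodendrocyte lineage of prep 3 *Glul* differed between stages. Oligodendrocyte-like cells held 1049, 1022 and 991 CPM, and 55.6% of them had a UMI at 1000 UMIs. Committed oligodendrocyte-like cells held 41.1, 60.1 and 24.7 CPM, so all replicates of these classes were apart. OPC-like cells had 374 CPM, but 99.3 CPM over the 80 core cells. The microglial markers summed to 12779 CPM over all OPC-like cells and 384 CPM over the core cells, which were chosen with these markers among others. In prep 1 the 66 oligodendrocyte-like cells had 565, 386 and 316 CPM, and the 26 core cells among them 861, 646 and 576 CPM. Low levels were found in neuron-like cells, with 119 CPM in prep 1 and 169 CPM in prep 3 (72.6 CPM in core cells), in smooth muscle-like cells of prep 1 with 128 CPM and in pericyte-like cells of prep 3 with 139 CPM. The unnamed cluster of prep 3 led by *Tagln* and *Acta2* had 555 CPM, but 85 of its 266 cells were closest to endothelial cells by their own markers. Its level therefore cannot be read as that of smooth muscle, and a smooth muscle-like level is given for prep 1 only.

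*Slc6a11*, the GABA transporter, was low in every class but astrocytes. Astrocyte-like cells held 419.7, 439.6 and 460.2 CPM in prep 1 and 582, 539.8 and 540.3 CPM in prep 3. The next classes were smooth muscle-like cells at 12.5 CPM, 35.1-fold lower, and neuron-like cells of prep 3 at 38.1 CPM, 14.6-fold lower. Over the core cells the neuron-like level was 7.45 CPM, with 5.84, 8.48 and 7.84 CPM in the replicates. At 1000 UMIs 34.8% and 39.1% of astrocyte-like cells held a UMI, against 0.620% and 0.138% of microglia-like cells. The levels of all other neural and vascular classes lay between 1.58 and 10.2 CPM, and their neighbours overlapped between replicates. Ependymal-like cells of prep 3 had 24.3 CPM.

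*Slc7a10* had a similar shape, with 566, 598 and 603 CPM in astrocyte-like cells of prep 1 and 738, 684 and 679.9 CPM in those of prep 3. Smooth muscle-like cells of prep 1 were next with 17.1 CPM, 34.4-fold lower, and OPC-like cells of prep 3 with 27.9 CPM, 25.1-fold lower. Over the 80 core OPC-like cells the level was 35.8, 91.9 and 29.7 CPM. At 1000 UMIs 41.3% and 44.4% of astrocyte-like cells held a UMI of *Slc7a10*, against 0.457% and 0.120% of microglia-like cells.

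A further site of *Slc7a10* lay outside these classes, in epithelial-like cells of prep 3, which carry markers of the choroid plexus such as *Ttr* and *Folr1*. Their level was 178, 163 and 195 CPM, which is 25.6% of the astrocyte-like level. The cells were shallow, with a median of 875 UMIs, and many shared barcodes. A cluster of 199 of them with a median of 7329 UMIs and 1.01% shared barcodes had 181 CPM. Of the other carriers, *Slc1a2* was at 23.2 CPM and *Slc6a11* at 1.71 CPM in the epithelial-like cells.

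*Slc38a3*, the glutamine carrier, was found in astrocytes and in endothelium. Astrocyte-like cells held 249, 219 and 228 CPM in prep 1 and 203, 175 and 187 CPM in prep 3. Endothelial-like cells held 285, 245 and 233 CPM in prep 1 and 205, 204 and 201 CPM in prep 3. The replicates of these classes overlapped in both preparations, and the endothelial-like level was 109.6% and 108% of the astrocyte-like one. At 1000 UMIs 21.8% and 18.96% of endothelial-like cells and 19.2% and 14.7% of astrocyte-like cells held a UMI of *Slc38a3*, against 0.326% and 0.138% of microglia-like cells. Fibroblast-like cells had 79.1 and 72.1 CPM, and in prep 3 ependymal-like cells had 164, 156 and 158 CPM and epithelial-like cells 81.6 CPM. The fibroblast-like clusters of 57 and 20 cells in prep 1 had 109.6 and 10.7 CPM of *Slc38a3*.

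In pericyte-like cells *Slc38a3* was 128, 126 and 106 CPM in prep 1, but 0, 0 and 7.93 CPM in prep 3, where 5 UMIs were counted. Beside this, the 10 endothelial markers summed to 12482 to 14136 CPM in the pericyte-like cells of prep 1 and to 470.3 to 485 CPM in those of prep 3, against 24935 and 27300.1 CPM in the endothelial-like classes. At a clustering resolution of 1.0 the level in prep 1 was 28.4 CPM. Neuron-like cells of prep 1 had 53.6 CPM from 60 UMIs, of which none lay in the 57 core cells, where the exact interval ends at 9.75 CPM.

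**Figure D1:**
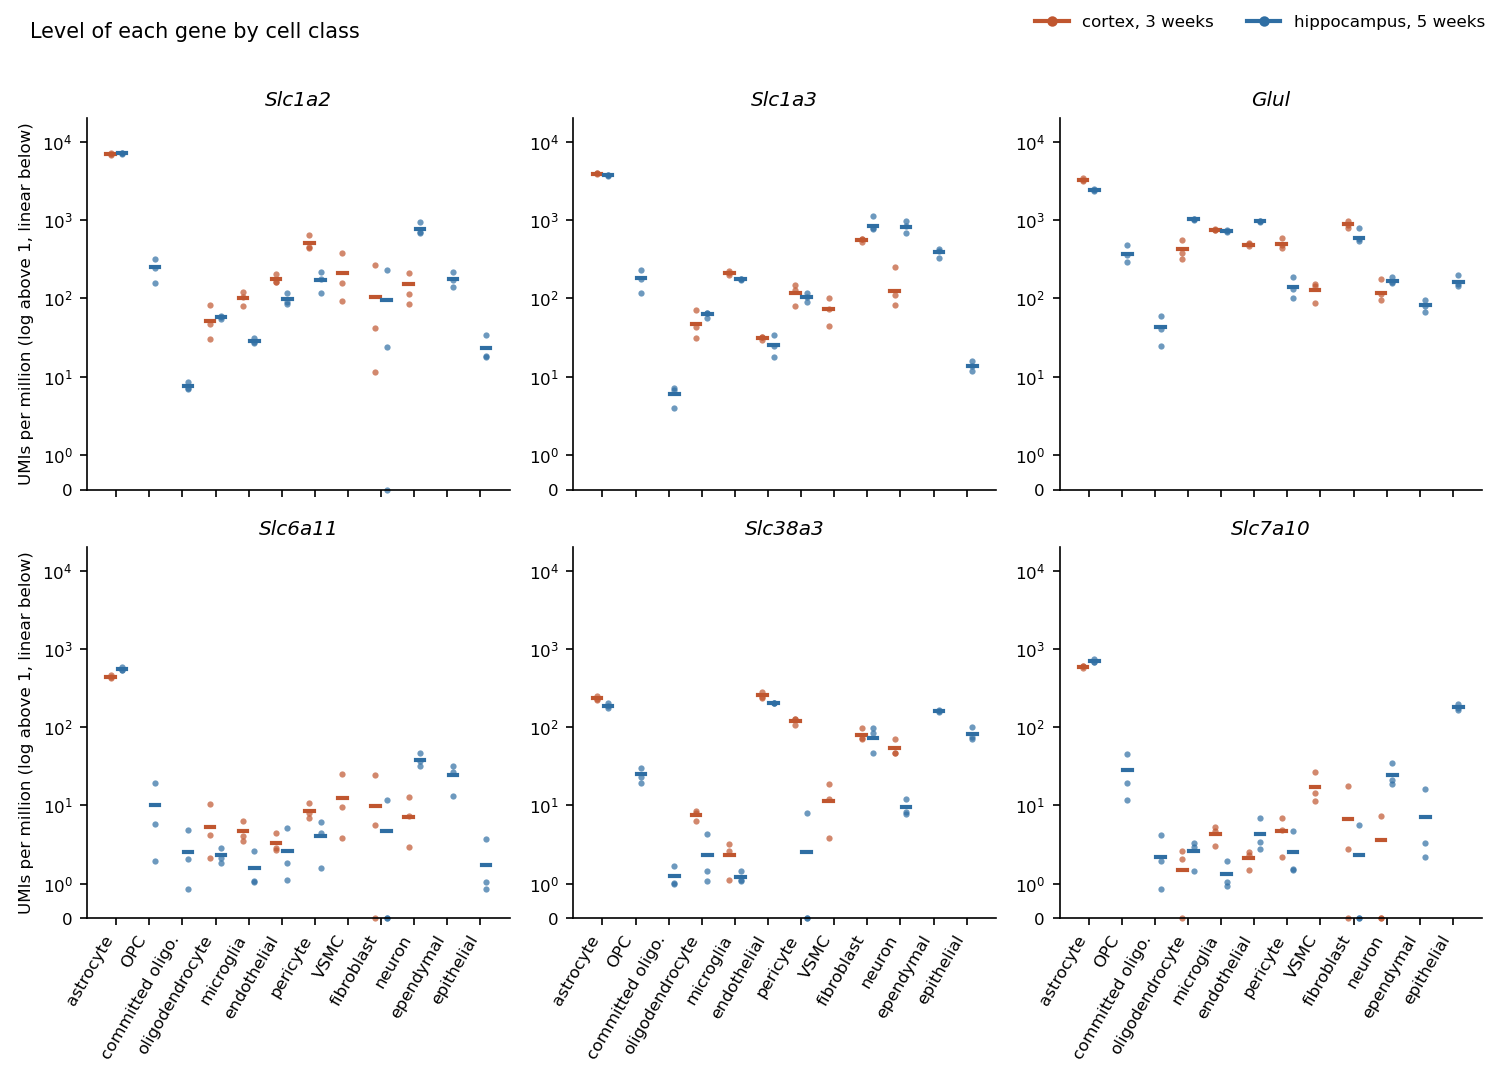
Level of each gene by cell class, in CPM on an axis that is logarithmic above 1 and linear below. Points are the 3 technical replicates of the cortex at 3 weeks and of the hippocampus at 5 weeks, and bars are the level over all cells of the class. *Slc1a2*, *Slc6a11* and *Slc7a10* drop steeply outside astrocytes, *Glul* stays between 429 and 1022 in several classes, and *Slc38a3* overlaps between astrocytes and endothelial cells.

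Levels outside astrocytes were set beside those of 12 anchor genes of astrocytes, among them *Aqp4*, *Gja1*, *Aldoc* and *Cldn10*. All anchors but *Slc4a4*, *Plpp3* and *Cbs* are also astrocyte markers by which clusters and cells were named. Cells rich in them were thus less likely to be classed elsewhere, above all among the core cells. The anchors are therefore no independent measure of astrocyte RNA in other barcodes. RNA from a single source keeps its genes in one ratio, so each level was written as a percentage of the astrocyte-like level and set beside the anchors. In microglia-like cells the anchors stood at 0.487% to 1.31% in prep 1 and 0.153% to 0.526% in prep 3. *Glul* stood at 23.0% and 29.7% there and *Slc1a3* at 5.38% and 4.70%, above every anchor in both. *Slc1a2* was above every anchor in prep 1 alone, at 1.44% and 0.399%, and *Slc38a3* in prep 3 alone, at 1.00% and 0.641%. Over the core cells of prep 1 *Slc1a2* stood at 0.790% against a highest anchor of 0.807%, and so was not above. *Slc6a11* and *Slc7a10* lay within the range of the anchors in both preparations.

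In endothelial-like cells the anchors reached from 0.452% to 4.18% and from 0.330% to 3.20%, while *Slc38a3* stood at 109.6% and 108% and *Glul* at 14.8% and 39.3%. *Slc1a2* stayed within the anchors at 2.49% and 1.36%. In oligodendrocyte-like cells *Glul* alone passed the anchors, with 13.05% in prep 1 and 41.7% in prep 3 against highest anchors of 4.41% and 3.39%. Pericyte-like cells of prep 1 had 3 genes above the anchors (at most 4.84%), namely *Slc38a3* at 51.5%, *Glul* at 15.3% and *Slc1a2* at 7.14%. In prep 3 *Glul* alone did, at 5.67% against 3.02%. In fibroblast-like cells no gene passed the anchors, of which the highest, *Gjb6*, stood at 67.8% and 103%. Over all genes of at least 50 CPM in astrocytes the share above every anchor was 89.8% and 92.3% in microglia-like cells and 87.1% and 89.2% in endothelial-like cells, so a place above the anchors does not set these genes apart. In oligodendrocyte-like cells this share was 92.3% and 89.1%, and in pericyte-like cells 91.0% and 92.3%.

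In the remaining classes the count above the anchors varied with their range. Neuron-like cells had 1 gene above them in each preparation, *Slc38a3* at 23.1% against 4.09% in prep 1 and *Slc1a3* at 21.8% against 19.2% in prep 3, where 93.8% and 89.9% of genes were above. Neither was above over the core cells, where *Slc38a3* had no UMI in prep 1 and *Slc1a3* stood at 5.63% against 6.90% in prep 3. There *Glul* at 4.55% and *Slc1a3* at 3.99% were above the highest anchor of 2.35% in prep 1. OPC-like cells had 4, namely *Glul* at 15.3%, *Slc38a3* at 13.3%, *Slc1a3* at 4.84% and *Slc7a10* at 3.98%, against a highest anchor of 3.77% and 96.4% of all genes. Over the core OPC-like cells 1 gene was above. Epithelial-like cells had 3, *Slc38a3* at 43.4%, *Slc7a10* at 25.6% and *Glul* at 6.58%, against 1.12% and 93.8% of all genes. Macrophage-like cells, the myeloid cells at the brain borders, had 1 in prep 1, *Glul* at 11.8%, and 2 in prep 3, *Glul* at 17.2% and *Slc38a3* at 2.04%, where 87.0% and 93.2% of genes were above. The count was 0 in smooth muscle-like, committed oligodendrocyte-like and ependymal-like cells, with shares of all genes of 86.4%, 89.4% and 25.3%, and in fibroblast-like cells, with 60.2% and 45.1%.

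**Figure D2:**
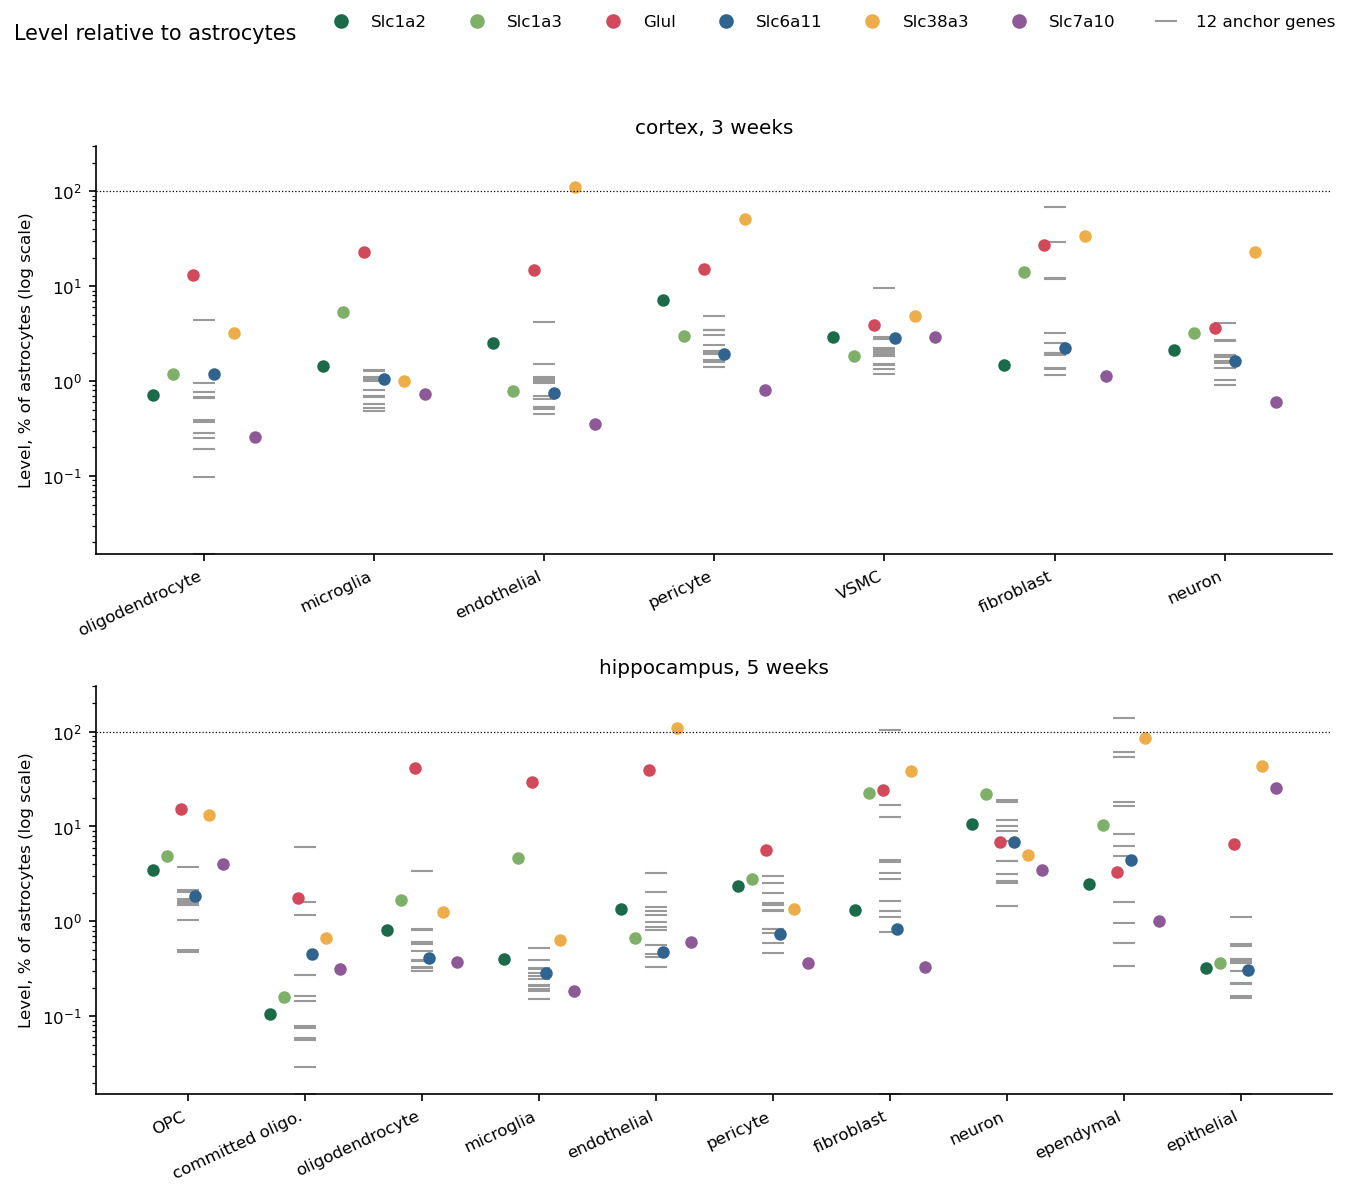
Level of each gene in the other classes as a percentage of its astrocyte-like level (logarithmic axis), with a panel for the cortex at 3 weeks and a panel for the hippocampus at 5 weeks. Grey dashes are the 12 anchor genes, a level of 0 is drawn at the foot of the axis, and the dotted line is the astrocyte-like level. *Slc38a3* meets the line in endothelial cells, and *Glul* stands above the anchors in microglia, oligodendrocytes and endothelial cells of both preparations.

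The shares of genes at least 2-fold higher in astrocytes, given above as 4.57% and 2.97%, were over 17036 genes in prep 1 and 17228 in prep 3, with 1 CPM added to each level. *Slc1a2*, *Slc1a3*, *Glul*, *Slc6a11* and *Slc7a10* also had their highest share of cells with a UMI in astrocytes in both preparations. How many of all genes do so was not computed, so this count does not set them apart. Seen cell by cell at 1000 UMIs, 94.6% ± 0.369 of astrocyte-like cells in prep 1 and 88.2% ± 2.18 in prep 3 held at least 3 of the 6 genes (SD, n = 3 technical replicates). All 6 were found together in 3.43% and 2.44%. Of microglia-like cells 1.35% and 0.413% held at least 3, and 40.3% and 41.1% held none. Of endothelial-like cells 1.59% and 1.32% held at least 3.

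Endothelial-like cells were not uniform in *Glul* and *Slc38a3*. Clusters were compared within vessels after their levels had been seen, so the following is a description. The main cluster of each preparation was led by *Slc38a5* and *Slco1a4*, carriers of capillary endothelium, with 2324 cells in prep 1 and 1319 in prep 3. Its *Glul* level was 493, 535 and 534 CPM in prep 1 and 522, 524 and 542 CPM in prep 3. A smaller cluster led by *Gkn3* and *Bmx*, genes of arterial endothelium, held 237 cells in prep 1, where the marker rules left it unnamed, and 549 in prep 3, where it was part of the endothelial-like class. Its *Glul* level was 1632, 1739 and 1842 CPM in prep 1 and 2008, 1854 and 1956 CPM in prep 3. *Glul* was thus higher in all 6 replicates of the *Gkn3* and *Bmx* clusters than in any replicate of the main clusters.

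*Slc38a3* ran the other way. It was 288, 251 and 235 CPM in the main cluster of prep 1 and 247, 252 and 255 CPM in that of prep 3. In the clusters led by *Gkn3* and *Bmx* it was 114, 72.8 and 78.0 CPM and 99.4, 98.99 and 88.2 CPM, so the replicates did not overlap. *Slc1a2* was 1125, 853 and 1191 CPM in the *Gkn3* and *Bmx* cluster of prep 1 but 162, 146 and 187 CPM in that of prep 3. In the former the anchors reached 1.79% to 13.5% of their astrocyte-like level and *Slc1a2* 14.9%, and in the latter 0.579% to 4.53% and 2.30%. *Glul* stood at 52.7% and 79.1% in these clusters.

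**Figure D3:**
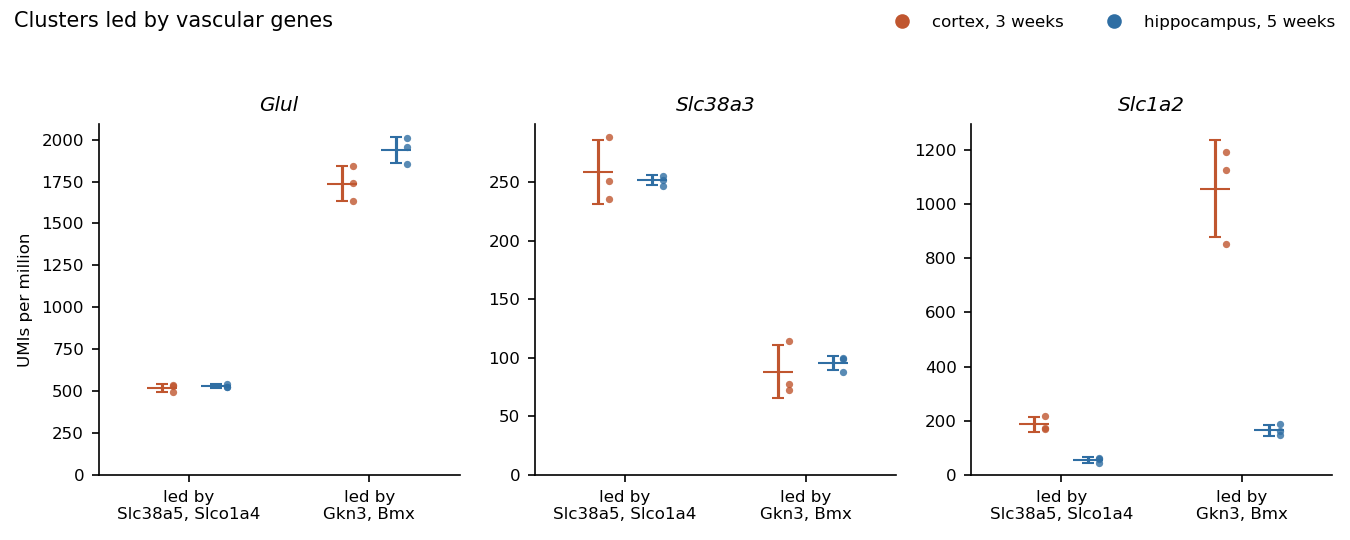
Levels of *Glul*, *Slc38a3* and *Slc1a2* in CPM in the clusters led by *Slc38a5* and *Slco1a4* and in those led by *Gkn3* and *Bmx*, for both preparations. Points are technical replicates, and bars with whiskers are their mean and SD. *Glul* lies between 1632 and 2008 in the *Gkn3* and *Bmx* clusters and between 493 and 542 in the others, while *Slc38a3* has the opposite order.

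Between the preparations the astrocyte-like levels of the 6 genes differed by less than 2-fold, in 0 of 6 cases past it. Of 14259 genes 9.33% were at least 2-fold higher in the hippocampus at 5 weeks and 4.45% in the cortex at 3 weeks. These ratios are scaled to the UMIs of the 27514 genes listed for both preparations. *Glul* had the largest shift, with a log2 ratio of hippocampus over cortex of -0.43 (-0.45 to -0.41), followed by *Slc6a11* at 0.33 (0.29 to 0.38) and *Slc38a3* at -0.31 (-0.38 to -0.23). *Slc7a10* had 0.25 (0.21 to 0.29), *Slc1a3* had -0.07 (-0.09 to -0.05) and *Slc1a2* had 0.01 (0.00 to 0.03). For *Slc1a2* the replicates of the preparations overlapped, and for the other 5 genes they did not. The share of all genes without overlap was not computed, so this count does not set the 5 genes apart.

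The median of all genes was 0.13 in this comparison and 0.01 with edgeR TMM factors. With those factors *Slc1a2* turned to -0.10 and *Slc1a3* stood at -0.19, *Glul* at -0.55, *Slc6a11* at 0.21, *Slc38a3* at -0.42 and *Slc7a10* at 0.13, so that *Slc1a2*, *Slc1a3*, *Glul* and *Slc38a3* lay below the median gene and *Slc6a11* and *Slc7a10* above it in both scalings. Which of region, age, preparation and gene list goes with these values cannot be told apart. The microglial markers in the astrocyte-like cells summed to 787 CPM in prep 1 and 1242 CPM in prep 3.

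**Figure D4:**
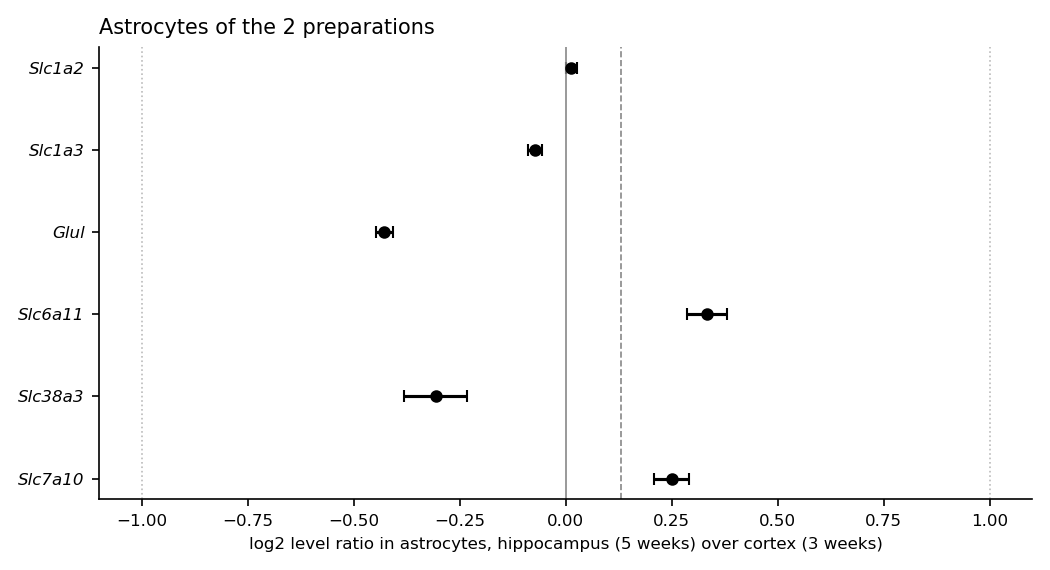
Log2 ratio of the astrocyte-like level in the hippocampus at 5 weeks over the cortex at 3 weeks for each gene, with intervals for counting error. The dashed line is the median of all genes (0.13) and the dotted lines are 2-fold. *Glul* (-0.43) and *Slc38a3* (-0.31) lie on the cortical side, and *Slc6a11* (0.33) and *Slc7a10* (0.25) on the hippocampal side.

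In the other classes that both preparations hold, the ratios were mixed. In endothelial-like cells *Glul* had a log2 ratio of 0.98 (0.94 to 1.01), *Slc38a3* of -0.33 and *Slc1a2* of -0.86. *Slc7a10* was past 2-fold there at 1.02 (0.46 to 1.60), but at low levels of 2.10 and 4.28 CPM from 45 and 68 UMIs. The cluster led by *Gkn3* and *Bmx* belongs to the class in prep 3 only. Counted in for prep 1, it raised the endothelial-like *Glul* level from 487 to 620.1 CPM, against 962 CPM in prep 3. Past 2-fold were 10.3% of genes towards prep 3 and 3.48% towards prep 1 in these cells. In microglia-like cells *Glul* had -0.06 and *Slc1a3* -0.27, while *Slc1a2* (-1.84), *Slc7a10* (-1.73) and *Slc6a11* (-1.56) were past 2-fold towards prep 1, as were 4.84% of all genes, with 5.7% past it towards prep 3. Over the core cells (6121 of 6205 in prep 1) *Slc7a10* had 1.89 and 1.31 CPM and *Slc6a11* 2.47 and 1.58 CPM, which is under 2-fold for both, and *Slc1a2* had 57.5 and 28.6 CPM. The summed astrocyte markers in microglia-like cells were 95.3 CPM in prep 1 and 35.3 CPM in prep 3, and their part in these ratios was not tested. In pericyte-like cells *Slc38a3* had -5.56, *Glul* -1.85 and *Slc1a2* -1.58, where 11.6% of genes were past 2-fold towards prep 1 and 12.2% towards prep 3, and the endothelial markers in these cells differed as given above. *Slc6a11* had -1.04 (-2.37 to 0.09) in pericyte-like cells, from 34 and 8 UMIs.

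Within astrocytes the 6 genes did not all vary together. The astrocyte-like cells were clustered again without them, into 6 subclusters in prep 1 and 8 in prep 3, of which 4 and 6 held under 20% called doublets. Over these, the lowest and highest levels of *Glul* differed by 1.27-fold in prep 1 and 3.42-fold in prep 3, and those of *Slc7a10* by 8.94-fold and 4.76-fold. The lowest *Slc7a10* level of prep 1 was that of 21 cells, and at a resolution of 0.2, where they were not apart, the span was 1.71-fold. *Slc1a2* spanned 1.99-fold and 1.76-fold, *Slc1a3* 2.04-fold and 2.67-fold, *Slc6a11* 2.39-fold and 3.12-fold, and *Slc38a3* 2.13-fold and 5.07-fold. At the resolution of 0.2 the spans of the 6 genes in prep 1 were 1.17-fold to 1.82-fold.

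In prep 1 the largest subcluster (969 cells, led by *Olig2*, *Fzd10*, *Cit*, *Igfbp2* and *Brinp3*) had the highest *Slc7a10* with 735 CPM (712 to 752 over the replicates), the highest *Slc38a3* with 292 CPM (274 to 313) and the highest *Slc6a11* with 485 CPM. A subcluster of 711 cells, led by *Gm14964*, *Adam23*, *Gdf10*, *Id3* and *Tpbg*, was higher in *Slc1a2* with 8442 CPM (8115 to 8927) against 6521 CPM (6265 to 6739), and lower in *Slc7a10* with 504 CPM. No replicate of these subclusters overlapped for *Slc1a2* or *Slc7a10*. In a small subcluster of 21 cells, led by *Myoc*, *Fxyd6*, *Gfap*, *6330403K07Rik* and *Slc38a1*, *Slc1a2* was highest with 11814 CPM and *Slc7a10* lowest with 82.2 CPM (71.0 to 91.5) from 30 UMIs.

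In prep 3 these 3 genes were again high in one subcluster. A subcluster of 394 cells, led by *Cit*, *Gabbr2*, *Ntrk3*, *Lrig1* and *Lrrn2*, had the highest *Slc7a10* with 1047 CPM (1012 to 1076), the highest *Slc6a11* with 865 CPM (818 to 944) and 315 CPM of *Slc38a3*, which had 323 CPM in a subcluster of 82 cells. Its *Slc1a2* level of 5649 CPM was below the 8166 CPM of the largest subcluster (633 cells, led by *Nnat*, *Cyr61*, *Gm14964*, *Dkk3* and *C4b*) and the 8309.9 CPM of a subcluster of 243 cells led by *Prss23*, *Cav1*, *Tnc*, *Gsn* and *Gdf10*. Between the subclusters of 394 and 633 cells the replicates of *Slc7a10*, *Slc6a11* and *Slc1a2* did not overlap.

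*Glul* followed another line. In both preparations it was highest in a shallow subcluster, of 868 cells with a median of 1661 UMIs in prep 1 and of 439 cells with a median of 1394 UMIs in prep 3. There it reached 4128 CPM (3882 to 4288) and 5143 CPM (4882 to 5464), against 3308 and 2124 CPM in the largest subclusters. In prep 1 its replicates overlapped those of the 21 cells led by *Myoc* (3082 to 4128 CPM). In the same cells *Slc1a3* was low, with 2814 CPM in prep 1 and 1686 CPM (1424 to 2009.8) in prep 3, and so was *Slc38a3*, with 160.3 and 63.6 CPM. These subclusters were led by *AY036118*, *Pcsk1n*, *Tubb2b*, *Hsd17b10* and *Pon2* and by genes that include *Aldh1a1*, *Acyp2*, *Cct5* and *Aldoc*. Their depth differed from that of the largest subclusters (medians of 7974 and 7018 UMIs), and its part in the values was not tested. The subclusters with the most called doublets (73.5%, 92.1% and 100%) were led by microglial or endothelial genes.

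**Figure D5:**
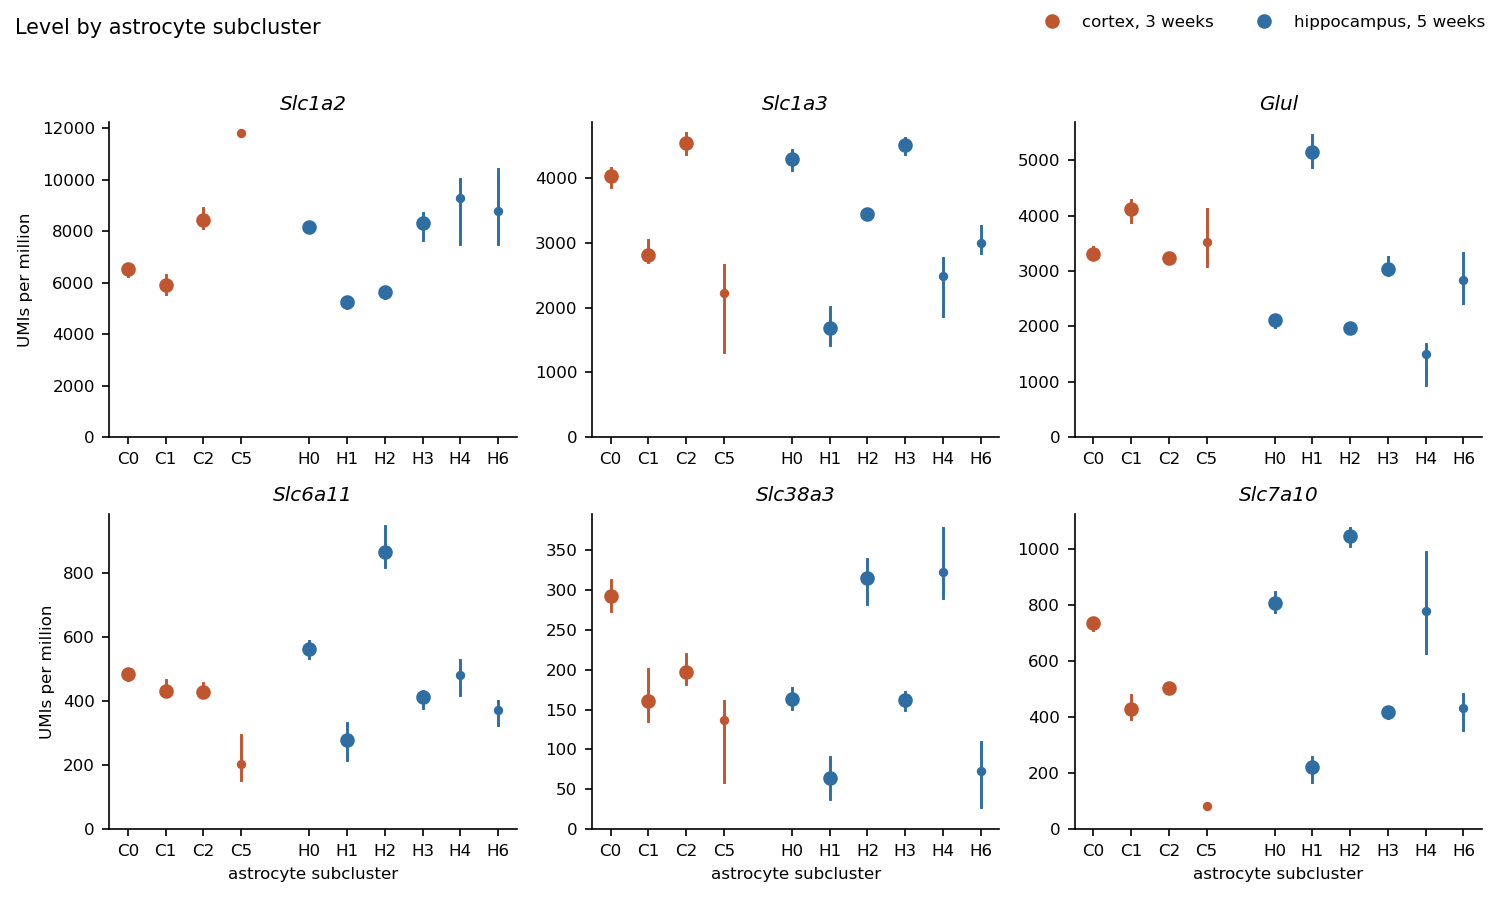
Level of each gene in CPM in the astrocyte subclusters with under 20% called doublets, C for the cortex at 3 weeks and H for the hippocampus at 5 weeks, numbered from 0 by size. Points are the level over all cells, smaller where a subcluster holds at most 100 cells, and lines span the technical replicates. *Slc7a10* and *Slc6a11* peak in C0 and H2, and *Glul* in the shallow subclusters C1 and H1.

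The genes whose levels ran most like each member were sought over 61 class-by-library points among 8581 genes, by Pearson's r of log2(CPM + 5). The points share libraries and classes, so these values are a description. *Ntsr2*, *Acsbg1*, *Cldn10* and *Aldoc* are astrocyte markers by which clusters were named, so high values with them follow in part from the naming. *Slc1a2* was closest to *Ntsr2* (0.93), *Acsbg1* (0.92), *Cldn10* (0.91), *Aldoc* (0.91) and *Slc6a11* (0.90). *Slc6a11* was closest to *Acsbg1* (0.96), *Aldoc* (0.95), *Ntsr2* (0.95), *Lcat* (0.95) and *C030018K13Rik* (0.94). *Slc1a3* was closest to *Mras* (0.88), *Igdcc4* (0.88), *Slc4a4* (0.87), *Entpd2* (0.85) and *F3* (0.85). *Slc7a10* was closest to *Kcnk1* (0.92), *Acsl6* (0.92), *Gm13111* (0.92), *Cth* (0.89) and *Slc39a12* (0.88). *Slc38a3* was closest to *Nebl* (0.92), *Cyp2d22* (0.89), *Gsta4* (0.88), *Slco1c1* (0.86) and *Tpd52l1* (0.83), of which *Slco1c1* encodes a thyroxine carrier of astrocytes and brain endothelium. *Glul* had no close partner, with *Pon2* (0.76), *Hsd17b11* (0.74), *Paqr7* (0.71), *Bmyc* (0.68) and *Tbc1d10a* (0.67). Among the members, *Slc1a2* and *Slc6a11* were nearest (0.90) and *Glul* and *Slc38a3* farthest (0.32).

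Of 45 further genes of glutamate, GABA and glutamine handling, 39 exceeded 10 CPM in at least 1 class in each preparation. In prep 1, 14 were highest in astrocyte-like cells and 9 at least 2-fold, and in prep 3 these counts were 8 and 5. At least 2-fold were 4.57% and 2.97% of all genes, with 1 CPM added. The 14 include *Slc6a5*, at 0.0585 CPM. How many of all genes are highest in astrocytes was not computed, so the counts of genes highest there, here and by group below, do not set these genes apart. Among the other glutamate and neutral amino acid carriers, *Slc1a4* (ASCT1) was astrocytic with 166 and 152 CPM, 5.29 and 2.52 times the next class. *Slc1a1*, the neuronal glutamate transporter EAAC1, was highest in oligodendrocyte-like cells of prep 1 with 211 CPM and in committed oligodendrocyte-like cells of prep 3 with 589 CPM, and at 0.819 and 2.19 CPM in astrocyte-like cells. *Slc7a11*, the cystine/glutamate exchanger, was highest in fibroblast-like cells with 1295 and 2583 CPM, ahead of astrocyte-like cells with 332 and 401 CPM.

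Among the GABA, glycine and taurine carriers, *Slc6a13* (GAT2) was highest in fibroblast-like cells with 923 and 1906 CPM and nearly absent from astrocyte-like cells with 0.0585 and 0.0783 CPM. *Slc6a13* is a fibroblast marker by which clusters were named, so its peak there follows in part from the naming. *Slc6a6*, the taurine carrier, was highest in endothelial-like cells with 1320.3 and 1955 CPM. Of the 5 other glutamine carriers, 0 were highest in astrocyte-like cells. *Slc38a5* was highest in endothelial-like cells with 363 and 278 CPM, and *Slc38a2* in fibroblast-like cells with 1205 and 368 CPM.

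Among enzymes and mitochondrial carriers, 5 of 12 genes were highest in astrocyte-like cells in prep 1 and 3 of 12 in prep 3. *Glud1*, glutamate dehydrogenase, had 519.8 and 545 CPM there, and *Slc25a18*, a mitochondrial glutamate carrier, 321 and 275 CPM. *Gad1* and *Gad2*, which make GABA, and the vesicular carriers *Slc32a1* and *Slc17a6* were highest in neuron-like cells in both preparations. For *Gad1*, a neuron marker by which clusters were named, this follows in part from the naming. Of the serine genes *Psph* was astrocytic with 203 and 151 CPM. Of the ion carriers, *Slc4a4*, a bicarbonate carrier, had 1005 and 1578 CPM in astrocyte-like cells and *Atp1b2*, a subunit of the sodium pump, 1537 and 1362 CPM, whereas *Kcnj10*, the potassium channel Kir4.1, was higher in oligodendrocyte-like cells with 201 and 214 CPM than in astrocyte-like cells with 161 and 144 CPM.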

How the data were processed

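Single cells of 2 preparations were measured as 3 technical replicates each on a Chromium Controller, and the libraries were sequenced on a NovaSeq. The authors deposited raw UMI counts per gene and barcode, made with Cell Ranger 5.0.1 on mouse genome mm10 per the labels. The matrix headers name version 3.0.1 for the cortex and 3.1.0 for the hippocampus, which list 31053 and 27998 genes. Prep 2 was not analysed here. The 6 genes and all lists were chosen with earlier results of these data known.

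A cell was kept with 250 to 6000 genes and a mitochondrial share of its UMIs below 25%. Counts were scaled to 10000 per cell, and the replicates were integrated by canonical correlation on 2000 variable genes and 30 dimensions and clustered at a resolution of 0.5 in Seurat 5.3.0 (R 4.3.3). Residual normalization and the automated annotation of the study were not used. Clusters were named from 17 marker lists, where a marker had to be in at least 20% of the cells at 2-fold (5 CPM added) and at least 3 markers were needed. A difference from the study may come from these rebuilt names. Doublets were called with Scrublet in scanpy 1.11.5 and kept. Shares of cells used 1000 UMIs drawn per cell, and shallower cells were left out. Exact Poisson and Clopper-Pearson intervals (95%, scipy 1.17.1) cover counting error only. With 1 pooled biological sample per preparation no p-value was computed. Genes entered the comparison of preparations with at least 10 UMIs, and edgeR 4.0.16 and DESeq2 1.42.0 gave alternative scale factors.

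Genes named are the 6 members, the 12 anchors, the pathway list, the 5 genes most correlated with each member among those of at least 50 CPM, and the 5 leading genes of each subcluster. Some genes of these lists are not reported here. The clusters led by *Gkn3* and *Bmx*, and the core cells, were chosen after their values were seen. Alternatives changed the classes, doublets, shared barcodes, depth, mitochondrial limit, resolution, scaling and replicates. The ratio and naming steps were tested on simulated data.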

Additional observations from a re-analysis of the deposited data

Results flagged for a closer look

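Against microglia-like cells, *Glul* lay on opposite sides in the preparations in oligodendrocyte-like and in endothelial-like cells. In oligodendrocyte-like cells the log2 ratio to microglia-like cells was -0.82 in the cortex at 3 weeks (429 against 757 CPM) and 0.49 in the hippocampus at 5 weeks (1022 against 728 CPM). In endothelial-like cells it was -0.64 in the cortex (487 against 757 CPM) and 0.40 in the hippocampus (962 against 728 CPM). In the classes as clustered every technical replicate had the sign of its preparation, but over core cells replicate 1 of the cortex had 861 CPM in oligodendrocyte-like and 748 CPM in microglia-like cells. The difference between the preparations was not tested, since each is 1 pooled sample.

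The cortical oligodendrocyte-like class held 66 cells, of which the 26 core cells had 715 CPM. The cluster led by *Gkn3* and *Bmx*, the highest in *Glul* among vessels, is in the endothelial-like class of the hippocampus only, and with it the cortical class had 620.1 CPM. The part of either in the difference was not tested.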

How the results depend on the processing

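Under all alternatives, 5 of the 6 genes in astrocytes stood at least 2-fold above every other named neural or vascular class in each preparation. The counts were 5 and 5 without any one replicate. None of the alternatives set the cluster led by *Gkn3* and *Bmx* apart as a class. There *Glul* had 1732 CPM in the cortex and 1937 CPM in the hippocampus, against 3289 and 2449 CPM in astrocytes. Between preparations 0 of the 6 genes passed 2-fold in astrocytes under any alternative. The log2 ratios of hippocampus over cortex ranged from -0.55 to -0.36 for *Glul*, -0.42 to -0.25 for *Slc38a3*, -0.19 to -0.05 for *Slc1a3*, 0.21 to 0.37 for *Slc6a11* and 0.13 to 0.29 for *Slc7a10*, while *Slc1a2* changed sign between -0.10 and 0.04. Pairs of gene and class above 2 times the anchor median numbered 18 in the cortex and 23 in the hippocampus, and above the highest anchor 10 and 12. The highest anchor was not the stricter limit in every class. In microglia-like cells of the cortex 3 genes passed it and 2 passed 2 times the median. With Spearman correlation 19 of the 30 nearest genes were shared. At a subcluster resolution of 0.2, 3 genes in place of 6 spanned 2-fold over all cortical subclusters, and 0 in place of 4 over those with under 20% doublets, where the subcluster of 21 cells is no longer apart. How many of all genes span 2-fold over subclusters was not computed, so these counts do not set the 6 genes apart.

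Of 39 single levels, 39 stayed within 1 SD of the replicates without shared barcodes, 34 without doublets, 28 over core cells, 28 at a resolution of 1.0 and 22 with cells classed by their own markers. Low levels in mixed classes moved most. In the hippocampus, neuron-like *Slc1a2* fell from 769.5 to between 243 and 319 CPM and *Slc1a3* from 817 to between 218 and 275 CPM, and OPC-like *Slc1a2* went from 249 to between 432 and 453 CPM and *Slc1a3* from 181 to between 286 and 296 CPM. In microglia-like cells of the cortex *Slc1a2* went from 102 to between 57.5 and 161 CPM, and in those of the hippocampus from 28.6 to 100.3 CPM by own markers. Pericyte-like *Slc1a2* was 780.4 CPM in the cortex at a resolution of 1.0 and 99.5 CPM in the hippocampus without doublets. Hippocampal pericyte-like *Slc38a3* (2.55 CPM) was 0 without replicate 3, 3.89 CPM without replicate 2 and 40.9 CPM by own markers, and cortical neuron-like *Slc1a2* was 96.9 CPM without replicate 3. At a mitochondrial limit of 15% no pericyte-like class was named in the cortex. No paired analysis was possible because the replicate numbers are technical replicates of 1 pooled suspension each and no test was made.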

Other observations

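Within the neuron-like class of the hippocampus, a cluster of 405 cells held 88 cells that were closest to astrocytes by their own markers and 274 closest to neurons. The 88 cells had 4129 CPM of *Slc1a3* and 3679 CPM of *Slc1a2*, against 3749 and 7158 CPM in the astrocyte-like class. Their *Glul* level was 519.9 CPM, *Slc6a11* 208 CPM, *Slc7a10* 101 CPM and *Slc38a3* 28.3 CPM, all below the astrocyte-like levels. *Hopx*, a gene known from neural stem cells among other cells, stood at 2952 CPM and *Aqp4* at 153 CPM. These cells and genes were chosen after their values were seen. The 274 other cells had 269.7 CPM of *Slc1a3*, 314 CPM of *Slc1a2* and 63.8 CPM of *Glul*.

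A shallow cortical cluster of 405 cells that stayed unnamed, led by *C130074G19Rik* and *Cgnl1*, had 2137 CPM of *Slc1a2* and 1198 CPM of *Glul*, while the anchor genes stood at 18.4% to 27.1% of their astrocyte-like levels there.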
